A study of Mus musculus with 12 samples.

Results

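The 10 genes Slc1a2, Slc1a3, Glul, Aqp4, Gfap, Aldh1l1, Pla2g7, Apoe, Clu and Sparcl1 mark maturing astrocytes, and they were followed through the prefrontal cortex of newborn wild-type mice and of mice that lack 1 or both functional copies of Myt1l. They were taken by name from a list of astrocyte genes, which was drawn up with earlier results of these data known, and make up 10 of the 18879 genes measured. Their values were read first in the cell types that the deposited cell table calls Astrocytes (immature) 1 [10-P], with 841 cells, and Astrocytes (immature) 2 [13-P], with 5708 cells, of 36263 cells in all. These types are called immature astrocytes 1 and immature astrocytes 2 from here on. A further 16 cell types with at least 100 cells in every library served for comparison.

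The labels give the strain as C57BL/6J, while the methods of the study describe zygotes and matings of C57BL/6N mice, and all animals were taken at postnatal day 0. WT animals were Myt1l (+/+), HET animals Myt1l (+/-) and HOM animals Myt1l (-/-). The mutant allele, made by CRISPR/Cas9 in zygotes and therefore carried by every cell, lacks 7 bp in exon 6, which shifts the reading frame and leads to a stop codon at residue 78. Dissociated cells were fixed in methanol, cells of 2 animals per genotype were pooled, and each pool gave 1 droplet library read from the 5′ end, so that the 12 deposited samples are 4 runs of each of 3 libraries. No table used here assigns cells to animals. Every comparison of genotypes below is therefore a comparison of 3 libraries with no test between animals and no p-value, in which a fold of 1.5 marks a difference.

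The level of a gene is the sum of its depth-corrected values over the cells of a type and library, divided by the sum over all genes and multiplied by 1000000. A gene was compared between 2 libraries where its summed value over both reached 50. The libraries held 10503 to 13688 cells with medians of 1045 to 1330 molecules per cell. Immature astrocytes 1 comprised 409 WT, 251 HET and 181 HOM cells, with medians of 1900, 2079 and 1106 molecules. Immature astrocytes 2 numbered 1300, 1859 and 2549 cells and were shallower, at 718, 860 and 777 molecules. Xist, the RNA of the inactive X chromosome, was present in 2121 WT cells but in 2 HET cells and 1 HOM cell, while 603 WT, 1865 HET and 2086 HOM cells had a Y-linked transcript, so that genotype and sex of the animals cannot be told apart. In the libraries 648 cell barcodes occurred more than once, in different libraries.

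Astrocytes arise from radial glia around birth and then acquire the machinery with which they clear glutamate and potassium, move water, supply lipids and shape synapses. Slc1a2 and Slc1a3 encode the glial glutamate transporters GLT-1 and GLAST, and Glul encodes glutamine synthetase, which turns the captured glutamate into glutamine. Aqp4 encodes the water channel of astrocyte endfeet and Gfap the intermediate filament protein of the astrocyte cytoskeleton. Aldh1l1 encodes a cytosolic folate enzyme widely used to label astrocytes, and Pla2g7 a secreted phospholipase that hydrolyses platelet-activating factor and oxidised phospholipids. Apoe and Clu encode lipoproteins of the brain, and Sparcl1 encodes the matricellular protein hevin, which promotes synapse formation. Myt1l encodes a zinc finger transcription factor of neurons. Its own transcript, which the deletion leaves stable, had levels of 73.0, 101 and 134.3 in WT, HET and HOM immature astrocytes 1, of 93.7, 133.2 and 212 in immature astrocytes 2, and of 737, 889 and 1406 in LayerII-IV [1-P] neurons, so that it does not check the genotype labels.

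Promoters of Slc1a3 and Pla2g7 are shown because, of the member genes with an entry in the RefSeq promoter table (GRCm38.p6), they were the ones with the motif core AAAGTT, which the study names for MYT1L. An entry was at hand for Slc1a2, Slc1a3, Glul, Gfap, Aldh1l1, Pla2g7 and Apoe, 7 of the 10 genes. Both motif matches lie on the strand opposite to the gene, so that the capitals read AACTTT. For Slc1a3 the 250 bases before the transcript start are given, at chr15:8710808-8711057 on the minus strand, upstream of the gene in the GENCODE M21 annotation (chr15:8634124-8710764). For Pla2g7, at chr17:43568098-43612201 on the plus strand, 30 bases are given, at chr17:43568298-43568327, which begin at base -153 from the RefSeq start and lie inside exon 1 of the GENCODE transcript Pla2g7-201.
Slc1a3: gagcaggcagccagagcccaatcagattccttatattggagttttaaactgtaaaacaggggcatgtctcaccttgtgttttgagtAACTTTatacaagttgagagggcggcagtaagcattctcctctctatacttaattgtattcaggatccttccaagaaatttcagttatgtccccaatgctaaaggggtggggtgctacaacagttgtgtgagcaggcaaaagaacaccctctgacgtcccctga
Pla2g7: ttcagtgattccgtgAACTTTgcggatatg

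Counted from the RefSeq start, the AAAGTT match covered bases -164 to -159 in Slc1a3 and -138 to -133 in Pla2g7, and 12.4% of 32851 promoter windows of 250 bases held this core on either strand. The same 2 promoters held the STAT-type motif TTCNNNGAA, at bases -96 to -88 and -145 to -137, against 7.02% of all windows, and in Pla2g7 it overlapped the AAAGTT match. The half-site TTGGCA of NFI factors was present in Apoe alone (12.3% of all windows), TATAAA in Apoe and in Slc1a3, where it overlapped AAAGTT (12.4%), and the SOX-type motif AACAAT in none of the 7 genes (9.42%). These matches describe the letters in the windows only. The windows of Slc1a2, Aldh1l1, Gfap and Pla2g7 lie inside the GENCODE gene, as do the Apoe windows with a match. For Slc1a2, Aldh1l1, Gfap and Pla2g7 the bases before the GENCODE gene start were therefore not searched. Within the immature astrocytes, the level of Slc1a3 was alike in the 3 libraries, and that of Pla2g7 was not. Elsewhere Slc1a3 differed, with HOM log2 ratios of 0.73 in the ganglionic eminences and -0.97 in the migrating SVZ1 cells. The part of the motifs in these levels was not tested.

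The 10 genes were first compared across the 18 cell types. In WT, 8 of the 10 had their highest level in one of the immature astrocyte types, and the exceptions were Apoe and Sparcl1. Slc1a2 reached 716 in WT immature astrocytes 1 and 409.5 in immature astrocytes 2, and the next type was the ganglionic eminences, a progenitor population, with 146.2. Slc1a3 had levels of 1981 and 1449 in these astrocytes and 339.7 in the ganglionic eminences. Both glutamate transporters, together with Aldh1l1, thus had the ganglionic eminences as the third type in all 3 libraries. Glul was shared more widely, with 815 and 750 in immature astrocytes 2 and 1, 560 in Endothelial1 [17-P] and 537 in microglia.

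Aqp4, Gfap, Pla2g7, Clu and Aldh1l1 had low levels in the other types relative to their higher astrocyte type. In WT, Aqp4 had a level of 203 in immature astrocytes 2 and at most 8.03 in any of the 16 other types. Gfap reached 137.9 in immature astrocytes 1 and at most 8.86 elsewhere, and Pla2g7 reached 198 in immature astrocytes 2 and at most 23.9 elsewhere, in oligodendrocytes. Clu had a level of 762.5 in immature astrocytes 1 and 86.3 in its next other type, the LayerV-VI [18-P] neurons. In immature astrocytes 2 its WT level was 210.6, and all layer II to VI neurons together had 19.0% of that level. From the higher astrocyte type to the highest of the other types, these WT levels differed by 8.31-fold for Pla2g7, 8.60-fold for Aldh1l1, 8.83-fold for Clu, 15.6-fold for Gfap and 25.2-fold for Aqp4.

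Apoe and Sparcl1 were abundant outside the astrocytes. Microglia had Apoe levels of 5006, 3206 and 4978 in the WT, HET and HOM libraries, and the range over libraries overlapped with those of immature astrocytes 1 (3555 to 3911) and immature astrocytes 2 (3264 to 3636). The order of these 3 types was not the same in every library. Sparcl1 was highest in Endothelial1 [17-P] in every library, at 3553, 3302 and 3818, followed by immature astrocytes 2 at 2944, 3047 and 2956. Endothelial2 [21-P] followed at 1724, 1756 and 1930, and then immature astrocytes 1 at 1318, 1424 and 1717. The ranges of these types over the 3 libraries did not overlap, although those of Endothelial2 [21-P] and immature astrocytes 1 came close, and the next type had 452 in WT.

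**Figure D1:**
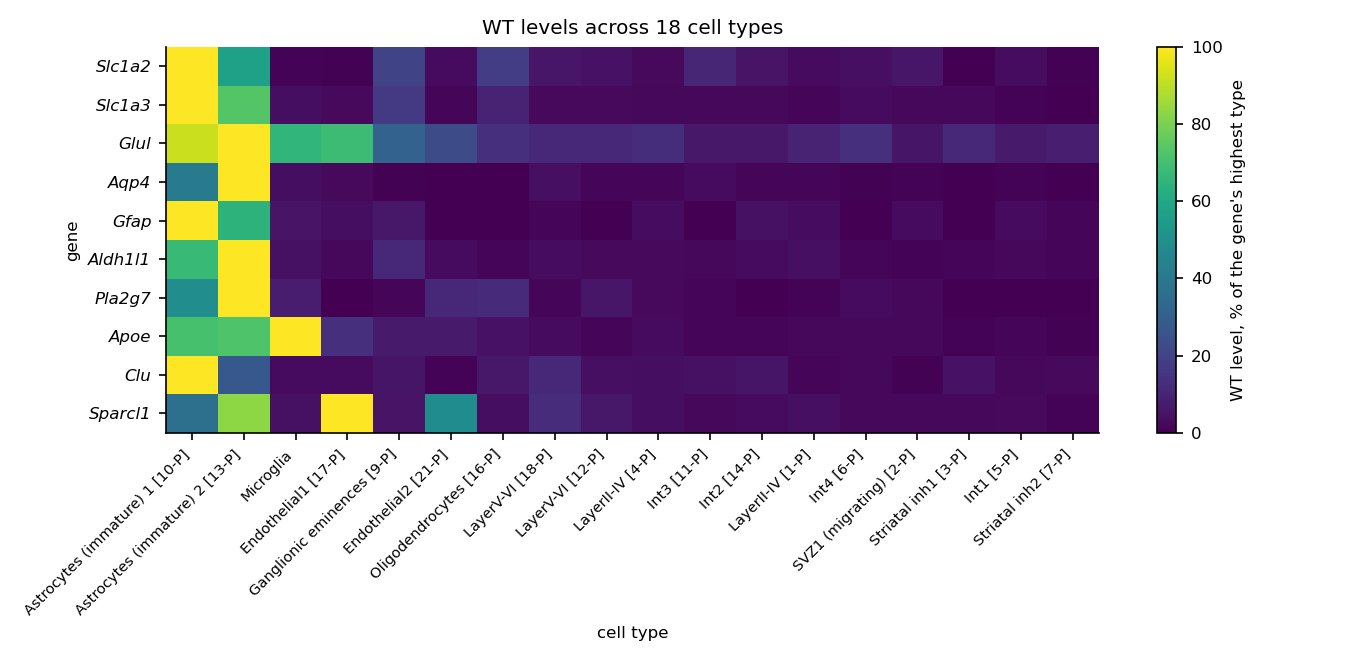
WT level of each gene (rows) in the 18 cell types that had 100 or more cells in every library (columns, both immature astrocyte types first), as a percentage of the gene's highest type. The bright fields fall in the immature astrocyte columns for 8 genes, in microglia for Apoe and in Endothelial1 [17-P] for Sparcl1.

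LayerII-IV [1-P] neurons served as the reference for free RNA in the droplets. Other neurons had more of some members: in WT LayerV-VI [18-P] neurons Sparcl1 was above 0 in 25.5% of cells and Clu in 7.63%, against 10.6% and 1.43% in LayerII-IV [1-P]. The reference neurons, with medians of 1047, 1364 and 1953 molecules per cell in WT, HET and HOM, had Slc1a3 above 0 in 3.02%, 3.42% and 2.38% of cells. In immature astrocytes 2 the shares were 46.0%, 51.0% and 49.9%, and in immature astrocytes 1 they were 66.7%, 67.3% and 58.0%. At least 3 of the 10 genes were above 0 in 70.4% of WT, 67.3% of HET and 63.5% of HOM immature astrocytes 1, with exact 95% intervals of 65.7 to 74.8%, 61.2 to 73.1% and 56.1 to 70.5%. For immature astrocytes 2 the shares were 54.1%, 59.9% and 57.2%, with intervals of 51.3 to 56.8%, 57.6 to 62.1% and 55.2 to 59.1%. In LayerII-IV [1-P] neurons 1.00 to 1.70% of cells reached this number. These intervals cover counting error only, and the values could not be thinned to one depth because the deposited matrix was corrected for depth beforehand.

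Most cells of either astrocyte type had a subset of the genes. The mean number above 0 was 3.89 in WT, 4.17 in HET and 3.72 in HOM immature astrocytes 1, and 3.09, 3.47 and 3.34 in immature astrocytes 2. None of the 10 was above 0 in 5.58 to 8.29% of immature astrocytes 1 and in 10.2 to 12.6% of immature astrocytes 2, the shallower cells. The most genes found in 1 cell were 9 in WT and all 10 in HET and in HOM, in each case in immature astrocytes 2. The endfoot channel and the filament protein were each found in few cells. Among the 409 WT immature astrocytes 1, Aqp4 was above 0 in 36 and Gfap in 47. Whether they met more or less often than these shares predict was not tested. Both Aqp4 and Gfap were above 0 in 8 of 409 WT, 8 of 251 HET and 2 of 181 HOM immature astrocytes 1, and 81.7%, 75.3% and 88.9% of these cells had neither.

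The comparison of both immature astrocyte types asked how the list is divided between them, and it was made within each library. Of the 10 genes, 5 had the higher level in immature astrocytes 2 in all 3 libraries (Glul, Aqp4, Aldh1l1, Pla2g7 and Sparcl1) and 3 in immature astrocytes 1 (Slc1a3, Gfap and Clu). Slc1a2 and Apoe had no common direction. At least 1.5-fold in all 3 libraries were Aqp4 and Sparcl1, higher in immature astrocytes 2, and Clu, higher in immature astrocytes 1. Over all 5537 genes compared, 3.85% passed the same rule towards immature astrocytes 2 and 4.93% towards immature astrocytes 1.

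Aqp4 had levels of 83.1, 121 and 91.1 in immature astrocytes 1 of WT, HET and HOM, and of 203, 237 and 210.2 in immature astrocytes 2, which is 2.44-fold, 1.97-fold and 2.31-fold higher. The ranges of the 2 types did not overlap. For Sparcl1 the folds towards immature astrocytes 2 were 2.23, 2.14 and 1.72. Clu was lower in immature astrocytes 2 by 3.62-fold, 3.64-fold and 2.27-fold, with levels of 210.6, 210.1 and 211 there. The Clu level of immature astrocytes 2 was thus nearly the same in the 3 libraries, and the smaller fold in HOM came from the immature astrocytes 1. Slc1a2 was 1.75-fold higher in immature astrocytes 1 in WT and 1.44-fold in HET, whereas in HOM the levels were 384 and 393.

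**Figure D2:**
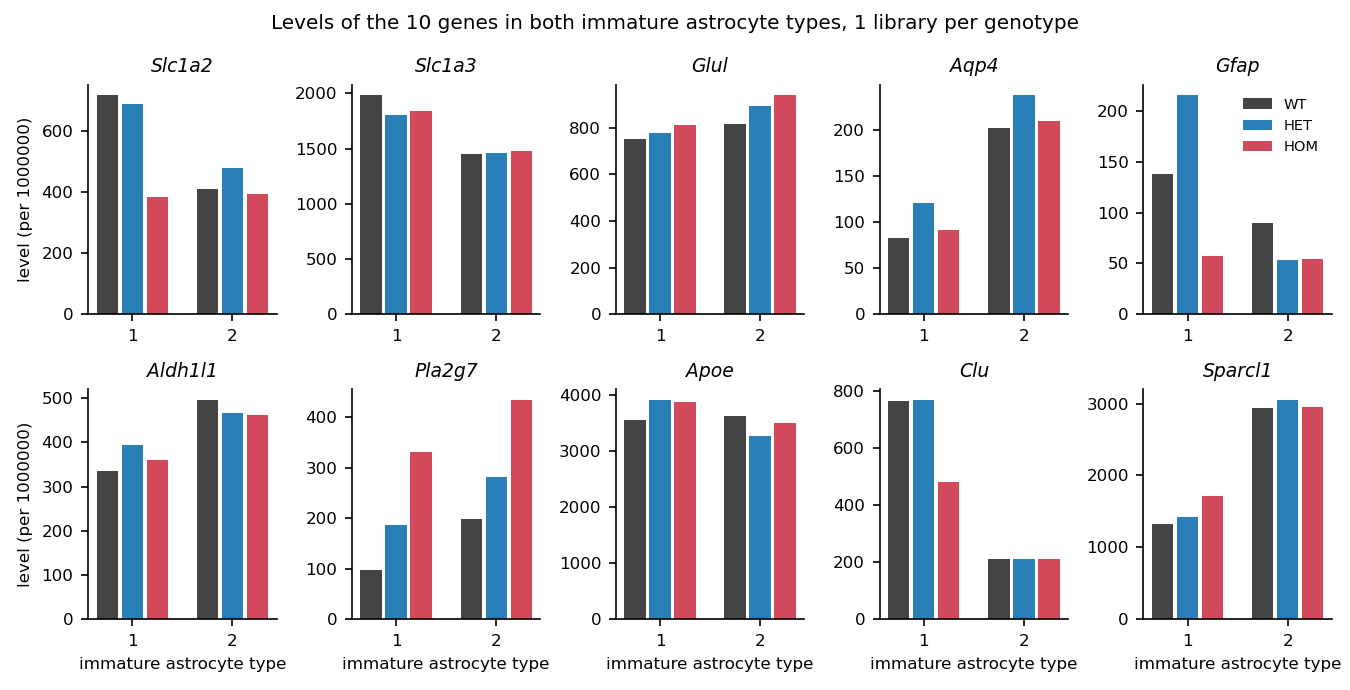
Levels (per 1000000 of the summed depth-corrected values, each axis from 0) of the 10 genes in immature astrocytes 1 and 2, with 1 bar per genotype library and no error bar because each genotype had 1 library. Pla2g7 is ordered WT, HET, HOM from low to high in both types (97.3, 185.8 and 331 in type 1, 198, 281 and 433.5 in type 2), and the Clu bars of type 2 are level at 210.1 to 211.

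Other genes of the astrocyte programme were divided between the types as well. Beside the counts below stand 3.85% of all genes towards immature astrocytes 2 and 4.93% towards immature astrocytes 1. In all 3 libraries, 4 of 9 transport and ion balance genes were at least 1.5-fold higher in immature astrocytes 2 and none in immature astrocytes 1; among them were Atp1b2, a sodium pump subunit, Slc4a4, a bicarbonate cotransporter, and the GABA transporter Slc6a11. Of 7 receptor and surface genes compared, Fgfr3 and Bcan were higher in immature astrocytes 2 and Plpp3 in immature astrocytes 1. Immature astrocytes 1 had the higher level of 4 of 10 radial glia and neural stem cell genes (Hopx, Pax6, Sox2 and Pdpn) and of 3 of 8 gliogenic transcription factors (Sox9, Zbtb20 and Lhx2). Hopx, a homeodomain protein of outer radial glia, had levels of 369, 515 and 143.9 in immature astrocytes 1 and of 44.3, 26.3 and 15.9 in immature astrocytes 2.

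Further genes higher in immature astrocytes 1 were Dtna of the endfoot complex, the lipid gene Abca1 and Mt3 among the metallothioneins. Aldoc, which was only counted with the lipid list, was higher there too, as were the secreted and engulfment genes Sparc, Megf10 and Cst3. Of the secreted and engulfment genes, 6 were compared, of which 3 were higher in immature astrocytes 1 and 1, Gpc6, in immature astrocytes 2. Genes of other cells were distributed unequally too. Of 7 cell cycle genes compared, 5 were higher in immature astrocytes 2 (Mki67, Top2a, Cdk1, Ccna2 and Ube2c), as were 5 of 9 neuron genes (Stmn2, Dcx, Snap25, Mapt and Rbfox3), Olig1 and Olig2 of the oligodendrocyte lineage, and 3 of 4 red blood cell genes. The summed level of the 11 neuron genes was 3018 to 3147 in immature astrocytes 2 and 1610 to 2057 in immature astrocytes 1, and the part of these cells' RNA in the results was not tested.

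The comparison of genotypes asked whether astrocyte genes differ where Myt1l, a neuronal factor, is lost. The genotype of each library follows the deposited cell table, and the directions below rest on it, since a legend of the study orders the genotypes otherwise. Pla2g7 was higher in both mutant libraries and in both astrocyte types. Its level in immature astrocytes 1 was 97.3 (WT), 185.8 (HET) and 331 (HOM), a log2 ratio to WT of 0.93 in HET and 1.77 in HOM, or 3.4-fold. Its level in immature astrocytes 2 was 198 (WT), 281 (HET) and 433.5 (HOM), a log2 ratio of 0.50 in HET, which is under 1.5-fold, and of 1.13 in HOM, or 2.19-fold. The order WT, HET, HOM was the same in both types, and with the types joined the log2 ratios were 0.65 and 1.31.

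The share of cells with a Pla2g7 value above 0 followed this order. It was 9.29% (exact 95% interval 6.66 to 12.5%) in WT, 19.5% (14.8 to 25.0%) in HET and 27.1% (20.8 to 34.2%) in HOM immature astrocytes 1. For immature astrocytes 2 it was 11.8% (10.1 to 13.7%), 18.3% (16.6 to 20.2%) and 24.4% (22.7 to 26.1%), and these 3 intervals did not overlap. All these intervals cover counting error among the cells of 1 library per genotype, and not the spread between animals. The summed values behind the levels were 48, 57 and 69 in immature astrocytes 1 and 273, 588 and 1223 in immature astrocytes 2. Median depth was 1900, 2079 and 1106 molecules in immature astrocytes 1 and 718, 860 and 777 in immature astrocytes 2, and its part in the order was not tested. In LayerII-IV [1-P] neurons, whose median depth rose from 1047 to 1364 and 1953 molecules, the share was 0.212%, 0.648% and 0.824%, and the Pla2g7 level over all layer II to VI neurons was 3.51, 7.18 and 10.9, or 1.77%, 2.56% and 2.53% of that in immature astrocytes 2 of the same library. In the 16 other types the Pla2g7 sums were too small to be compared in any, with WT sums of at most 7. The level was above WT in 12 of them in HET and in 14 in HOM, and the same count over all genes was not made.

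**Figure D3:**
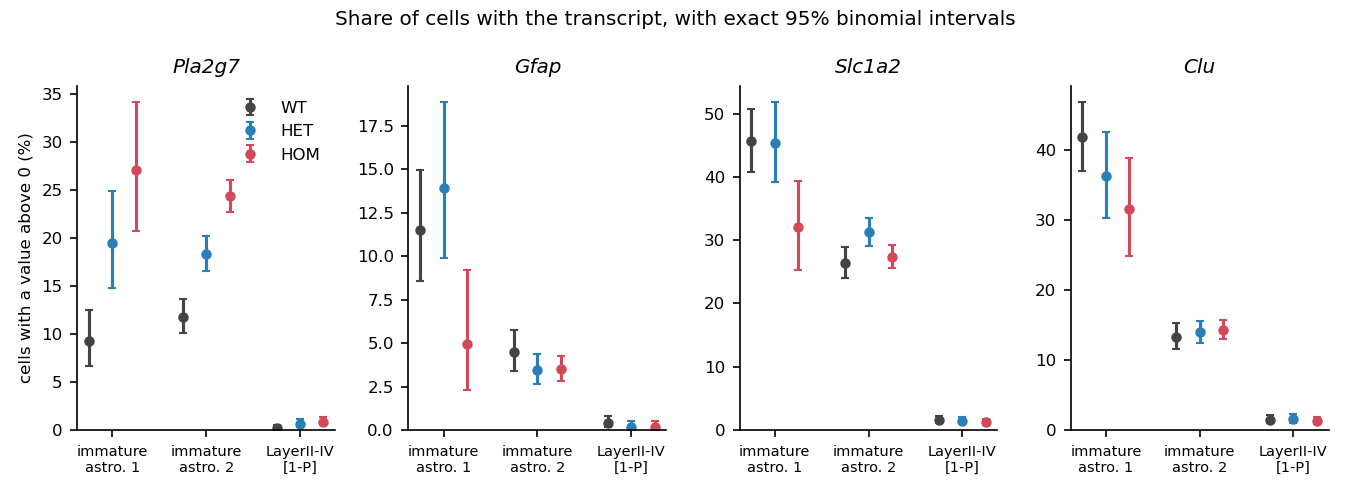
Share of cells with a value above 0 (percent, each axis from 0) for Pla2g7, Gfap, Slc1a2 and Clu in immature astrocytes 1, immature astrocytes 2 and LayerII-IV [1-P] neurons, 1 point per library with exact 95% binomial intervals that cover counting error only. For Pla2g7 in immature astrocytes 2 the points are 11.8%, 18.3% and 24.4%, and in the neurons all 4 genes stay at or below 1.59%.

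Gfap was lower than WT in HOM in both types. Its level in immature astrocytes 1 was 137.9 (WT), 215 (HET) and 57.6 (HOM), a log2 ratio of 0.64 in HET and -1.26 in HOM. The corresponding levels in immature astrocytes 2 were 89.3, 53.0 and 53.9, a log2 ratio of -0.75 in HET and -0.73 in HOM. The HET library was thus the highest of the 3 in immature astrocytes 1 and below WT in immature astrocytes 2, and with both types joined the HET log2 ratio was -0.47. Few cells carried the transcript. The values came from 47, 35 and 9 cells of immature astrocytes 1, in HOM with a summed value of 12, and from 58, 64 and 89 cells of immature astrocytes 2. Shares of 4.46%, 3.44% and 3.49% in immature astrocytes 2 had overlapping intervals, while the summed values of 123, 111 and 152 stood against 58, 64 and 89 cells.

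Slc1a2 and Clu were lower in HOM immature astrocytes 1, and not in immature astrocytes 2. Slc1a2 had levels of 716, 688 and 384 in WT, HET and HOM immature astrocytes 1, a log2 ratio of -0.06 in HET and -0.90 in HOM, and its share of cells was 45.7%, 45.4% and 32.0%. The levels in immature astrocytes 2 were 409.5, 478.5 and 393, with log2 ratios of 0.22 and -0.06, and with the types joined the HOM log2 ratio was -0.32, under 1.5-fold. Clu had levels of 762.5, 766 and 480 in immature astrocytes 1, a log2 ratio of 0.01 in HET and -0.67 in HOM, and log2 ratios of -0.003 and 0.005 in immature astrocytes 2. Whether the 2 types differ in these ratios was not tested. The Clu difference did not reach 1.5-fold when cells with a meningeal fibroblast transcript were left out (log2 ratio -0.51) or when cells with a type probability under 0.9 were left out (-0.56). HOM immature astrocytes 1 were also the shallowest, with a median of 1106 molecules against 1900 in WT, and among cells with at least 1000 molecules the HOM log2 ratios were -0.87 for Slc1a2, -0.65 for Clu, -1.07 for Gfap 1.67 for Pla2g7 and 0.71 for Sparcl1, which did not pass 1.5-fold over all cells.

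The other 6 genes did not pass 1.5-fold in either type or genotype over all cells. Slc1a3 had log2 ratios of -0.14 and -0.11 in immature astrocytes 1 of HET and HOM, and of 0.01 and 0.03 in immature astrocytes 2. Glul had ratios of 0.05 and 0.11 in immature astrocytes 1 and of 0.13 and 0.20 in immature astrocytes 2. Glul thus lay above WT in all 4 comparisons over all cells, by at most 1.15-fold, but in cells with a Y-linked transcript its log2 ratios were 0.71 and 0.88 in immature astrocytes 1 and -0.36 and -0.41 in immature astrocytes 2. Aldh1l1 lay between -0.10 and 0.24, Apoe between -0.16 and 0.14, and Sparcl1 between 0.01 and 0.38. Aqp4 had a ratio of 0.54 in HET immature astrocytes 1, just under 1.5-fold, and of 0.05 to 0.23 in the 3 other comparisons. The HET ratio of Aqp4 in immature astrocytes 1 passed 1.5-fold with the mean of values per cell (0.62) and without cells that had a meningeal fibroblast transcript (0.60), which raised the count of higher genes there to 3.

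**Figure D4:**
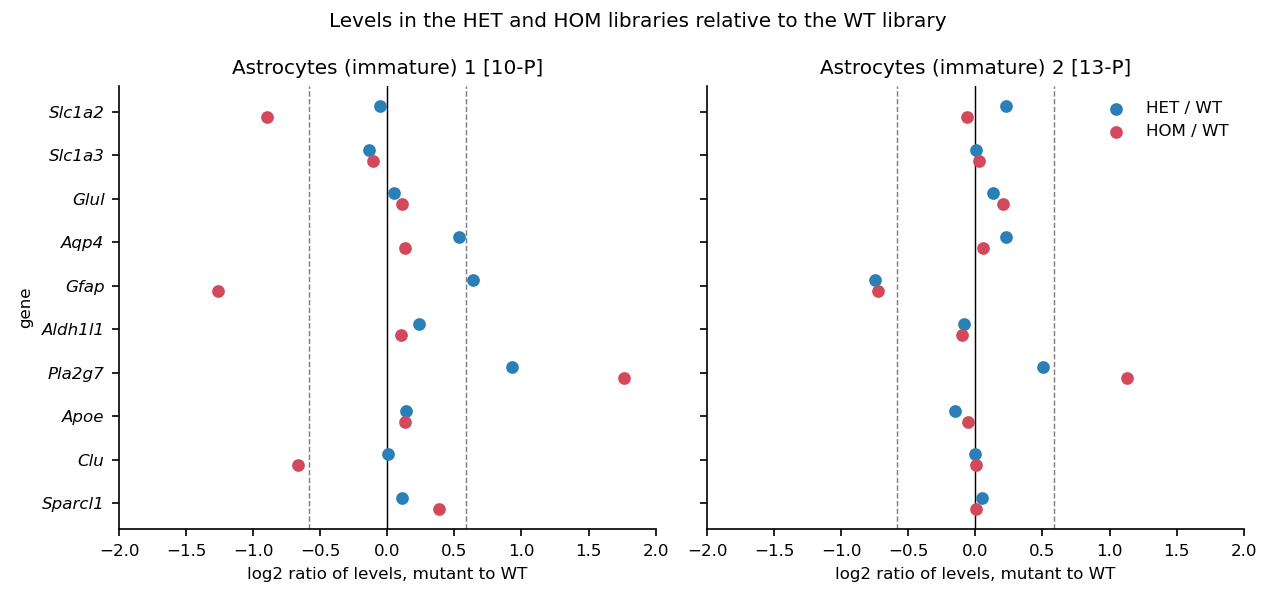
Log2 ratio of the level in the HET (blue) and HOM (red) library to the WT library for the 10 genes in immature astrocytes 1 (left) and 2 (right). The dashed lines stand at 1.5-fold, and Pla2g7 at 1.77 and 1.13 in HOM is the gene farthest to the right in both types.

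Counted over the list, 2 genes were higher and 0 lower by 1.5-fold in HET immature astrocytes 1, against 4.79% and 9.52% of all 2920 genes compared. In HOM immature astrocytes 1 the counts were 1 higher and 3 lower, against 7.85% and 15.8% of 2523 genes. In immature astrocytes 2, 0 genes were higher and 1 lower in HET, against 5.27% and 7.47% of 7893 genes, and 1 was higher and 1 lower in HOM, against 5.06% and 13.4% of 8321 genes. The median log2 ratio of the 10 genes was 0.12 in HET and 0.11 in HOM immature astrocytes 1, beside 0.005 and -0.03 for all genes. In immature astrocytes 2 it was 0.03 and 0.01, beside 0.001 and -0.10. Of the 10 genes, 8 lay above WT in HET immature astrocytes 1 and 6 in each other comparison.

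Markers of other cells moved with the HOM library. The 6 meningeal fibroblast genes had summed levels of 56.8, 26.1 and 3199 in WT, HET and HOM immature astrocytes 1, and of 28.3, 25.8 and 318 in immature astrocytes 2. Nearly all of it was Ptgds, prostaglandin D synthase, at 3036 in HOM immature astrocytes 1. Igf2 followed, at 12.2, 3.26 and 125 in the WT, HET and HOM libraries of immature astrocytes 1. Col1a1 and Dcn, genes of the fibroblast matrix, were at 0 in these cells in every library, and Col1a2 was at 36.5, 3.26 and 33.6. Ptgds was above 0 in 18.8% of HOM immature astrocytes 1, 10.1% of HOM immature astrocytes 2 and 8.39% of HOM LayerII-IV [1-P] neurons. The WT shares were 0.733%, 0.538% and 0.106%. The HOM level of Ptgds was higher in Choroid plexus [20-P], at 40540 with 7 cells, and in Endothelial2 [21-P], at 18020. Without cells that had a meningeal fibroblast transcript, the HOM log2 ratios in immature astrocytes 1 were 1.85 for Pla2g7, -1.40 for Gfap and -0.80 for Slc1a2.

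The 5 red blood cell genes had summed levels of 795, 460 and 1300 in immature astrocytes 1 and of 1684, 1212 and 2466 in immature astrocytes 2. The 10 microglia and macrophage genes stayed between 22.8 and 102, and in immature astrocytes 1 none of them had a sum large enough to be compared. The summed endothelial level in immature astrocytes 1 was 32.5, 81.5 and 86.3, that of the mural genes 126, 218 and 230.2, and that of the intermediate progenitor genes 142, 107.5 and 81.5. The ependymal and choroid plexus genes stayed at or below 32.6 in either type. The part of these other cells in the differences was not tested.

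Sex was read from the WT library, the only one with both Xist and Y-linked transcripts in number. Among WT immature astrocytes 2, Pla2g7 had a level of 231 in the 117 cells with Xist and of 354 in the 30 cells with a Y-linked transcript and no Xist, and it was above 0 in 17.1% (10.8 to 25.2%) and 23.3% (9.93 to 42.3%) of them. Among WT immature astrocytes 1, it was above 0 in 14 of 94 cells with Xist and in 1 of 31 with a Y-linked transcript. The direction thus differed between the types, with few cells behind it. In immature astrocytes 2, median depth was 2651 molecules with Xist and no Y-linked transcript, and 1209 with a Y-linked transcript and no Xist. The 1152 cells with neither had a median of 694 molecules and a Pla2g7 level of 189.7. With cells that had a Y-linked transcript alone, 31 in WT and 244 in HOM, the HOM log2 ratio of Pla2g7 in immature astrocytes 2 was 0.64, that of Slc1a2 was -0.72 and that of Clu was 0.77. The HET log2 ratio of Pla2g7 was then 0.05, and its sums in immature astrocytes 1 were too small to be compared.

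Among the other astrocyte genes, few of those compared passed 1.5-fold in either direction. Over all genes, 4.79% were higher and 9.52% lower in HET immature astrocytes 1, and 7.85% and 15.8% in HOM. The shares in immature astrocytes 2 were 5.27% and 7.47% in HET and 5.06% and 13.4% in HOM. Of the transport and ion balance genes, 0 of 7 passed in immature astrocytes 1 and 1 of 9 in immature astrocytes 2, the amino acid exchanger Slc7a10, at 50.8, 81.2 and 81.9 in the WT, HET and HOM libraries. Of the lipid metabolism genes in HOM immature astrocytes 2, Acsbg1 was higher (193.9 in WT against 307), and 2 of 8 were lower (Abca1, 100.2 against 64.9, and Lrp1, 173 against 106). The cholesterol exporter Abca1 was also lower in the 3 other comparisons, with log2 ratios of -0.59 in HET and -0.81 in HOM immature astrocytes 1 and -0.98 in HET immature astrocytes 2. Of the gap junction and endfoot genes, Dag1 was lower in HET immature astrocytes 1 (log2 ratio -0.75) and Dtna higher in HET immature astrocytes 2 (0.63).

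Of the secreted and engulfment genes, Chrdl1 alone passed, in HET immature astrocytes 2 (0.79). Of the receptor and surface genes, Ednrb, the endothelin receptor B, was higher in HOM immature astrocytes 1 (0.78), and Cd9 and S1pr1 were higher in HET immature astrocytes 2 (0.66 and 0.60). Mt2 was lower in HOM immature astrocytes 1 (-0.59).

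Some transcription factors of gliogenesis were lower in the mutant libraries of immature astrocytes 1. Of 7 compared, 2 were lower in HET (Nfib, log2 ratio -0.92, and Nfix, -0.65), where 9.52% of all genes were lower, and in HOM, where 15.8% of all genes were lower, 3 were lower (Nfix, -1.23, Lhx2, -1.22, and Nfia, -0.79) and 1 higher (Hes5, 0.71). Among immature astrocytes 2, Nfix was lower in HOM (-0.72) and Hes5 higher in HET (0.84), each as 1 of 8. In these cells 13.4% of all genes were lower in HOM and 5.27% higher in HET. Of 9 radial glia genes compared in HOM immature astrocytes 1, Hopx (-1.36) and Pax6 (-1.09) were lower and Pdpn higher (0.59). Over all genes, 15.8% were lower and 7.85% higher there. Hopx was lower in HOM immature astrocytes 2 as well (-1.47). In HET, 0 of 9 passed in immature astrocytes 1, where the Hopx log2 ratio was 0.48, opposite to HOM, and in immature astrocytes 2 Hes1 (0.70) and Pdpn (0.64) were higher and Hopx (-0.75) lower.

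Cell cycle genes were compared in immature astrocytes 2, where 10 of 10 had sufficient sums. In HET, 2 were higher (Mcm6 and Ccnb1) and 1 lower (Mcm2), and in HOM 3 were higher (Mcm6, Ccnb1 and Ccna2) and 0 lower. Over all genes compared in these cells, 5.27% were higher and 7.47% lower in HET, and 5.06% and 13.4% in HOM. Of 7 neuron genes compared in HOM immature astrocytes 1, Gap43 (0.82) and Tubb3 (0.71) were higher and Dcx (-0.80) and Neurod6 (-0.60) lower. In HET, Gap43 (0.73) and Dcx (-0.72) passed in the same directions. Over all genes in immature astrocytes 1, 7.85% were higher and 15.8% lower in HOM, and 4.79% and 9.52% in HET. In immature astrocytes 2, Dcx alone of 11 neuron genes passed, at -0.60 in HET and -0.77 in HOM. Among the oligodendrocyte lineage genes, Olig1 was the only 1 compared in immature astrocytes 1. It was higher in HOM (1.03), on sums of 29 in WT and 25 in HOM. Pdgfra, 1 of 4 compared, was lower in HET immature astrocytes 2 (-0.82).

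Outside the astrocytes, pairs of a member and a cell type passed 1.5-fold in 14 of 62 compared in HET (5 higher and 9 lower) and in 22 of 68 in HOM (14 higher and 8 lower). Over all genes, 5.14% of such pairs were higher and 8.31% lower in HET, and 7.56% were higher and 13.2% lower in HOM. In the ganglionic eminences, HOM exceeded WT for Aldh1l1 (57.6 against 126.2, log2 ratio 1.13), Sparcl1 (185 against 396, 1.10) and Slc1a3 (339.7 against 565, 0.73), and HET did so for Sparcl1 (0.76) and Aldh1l1 (0.68). The HET level of Slc1a3 lay between, at 446. For Apoe, 6 of 16 types passed 1.5-fold upwards in HOM and 0 downwards, the highest being Endothelial2 [21-P] with a log2 ratio of 1.37. In microglia, its main other source, Apoe was lower in HET (-0.64) and level in HOM. Slc1a2 was lower by 1.5-fold in 4 of 6 types compared in HOM and in 2 of 6 in HET, most in the migrating SVZ1 cells, with log2 ratios of -2.91 and -1.09.

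For each of the 10 genes, the genes with the most similar pattern over the 18 cell types were named by Pearson's r of log2(level + 10) in WT. These correlations describe the types of 1 library, which share free RNA and depth. Slc1a3 was most like Ndrg2 (r = 0.96), Mlc1 (0.96) and Fabp7 (0.95), and Aldh1l1 most like Tnc (0.96), Aldoc (0.94) and Mlc1 (0.93). Gfap and Aqp4 were both most like Aldh1l1 (0.95 and 0.93), followed by Aldoc (0.93) and Tst (0.91) for Gfap and by Cpe (0.90) and Tnc (0.89) for Aqp4. Slc1a2 was most like Ptprz1 (0.90), Slc15a2 (0.90) and Nr2e1 (0.89). Pla2g7 had Vcam1 (0.92), Glud1 (0.91) and Aldoc (0.88) as its nearest genes.

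The more widely shared members had other neighbours. Glul and Apoe were near each other (0.93), with Cpt1a and Gng5 (both 0.91) beside Glul, and Cst3 and Fos (both 0.94) beside Apoe. Clu was most like Cpe (0.90), Mt3 (0.90) and Fabp7 (0.88), and Sparcl1 most like Timp3 (0.92), Fkbp9 (0.90) and Serpinh1 (0.89). In HET and HOM the same pairs had r between 0.78 and 0.97. Within the list, the least alike pair was Slc1a2 and Sparcl1 in WT (r = 0.37) and HET (0.46), and Clu and Sparcl1 in HOM (0.50).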

How the data were processed

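Single-cell RNA sequencing of prefrontal cortex was compared between 3 libraries (WT, HET and HOM). Reads were mapped by the authors to the mm10 build in Cell Ranger 4.0.0 and processed further in Seurat 4.0 and Scanpy. They discarded cells with fewer than 200 or more than 4000 genes or over 15% mitochondrial content, and transferred cell type names from a reference atlas. Microglia and blood cells were instead named from marker genes. The methods describe both as left out of later steps, but the deposited cell table still holds microglia. For the annotation version and for doublet removal, nothing was stated (not given in the sources used here). Doublets were not called anew. The deposited matrix holds whole numbers in a score unit that were already corrected for depth, by a method not given in the sources used here: totals per cell lay between 825 and 1952, molecules between 499 and 17602, and both were equal in 617 cells. No count model was therefore applied. A deposited table of cells lists molecule counts, a mitochondrial percent and, as a fraction, the probability of each assigned type. The authors' own comparison tables (fold changes and p-values per gene) were not used.

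Values were summed per type and library with Python 3.11.15, numpy 2.4.6, scipy 1.17.1 and pandas 2.3.3. A gene at 0 in 1 library was set to a floor of 3 in that library. Shares have exact Clopper-Pearson 95% intervals. Positions are from GENCODE M21, which has the mm10 build. The steps were tested on simulated data. Named are the 10 genes, the 3 genes most like each (mean WT level of at least 20) and up to 4 genes per list with the largest log2 ratio, and beside these the genes past 1.5-fold between both astrocyte types and, chosen after their values were seen, Col1a1, Col1a2, Dcn and Igf2. The 22 gene lists include 4 that divide the members by role. The members and lists were chosen with earlier results of these data known. Genotype names rest on the deposited cell table, because the study's own legend lists identical cell numbers in another genotype order. Some genes of the lists are not reported here.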

Additional observations from a re-analysis of the deposited data

Results flagged for a closer look

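Gfap went in opposite directions in HET in the 2 immature astrocyte types. Its log2 ratio to WT was 0.64 in immature astrocytes 1 and -0.75 in immature astrocytes 2, both past 1.5-fold. The difference was not tested, since each genotype had 1 library. In HET, the values came from 35 cells of immature astrocytes 1 and 64 cells of immature astrocytes 2.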

How the results depend on the processing

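No paired analysis was possible because each genotype had 1 library and the shared run numbers mark runs of it. Beside 10 alternatives listed with the design, 4 were chosen after seeing the data: both for the share of cells with at least 3 genes, cells without a meningeal fibroblast transcript, and cells whose barcode occurred in 1 library. Of 389 log2 ratios of single genes, 55 took the other sign, of which 1 had passed 1.5-fold: Gfap in HET immature astrocytes 1 became -0.47 with both types joined. Beyond this, 31 moved by more than the counting error and 357 by less. Of 240 shares, 105 stayed within their interval and 135 moved, and the cause was not tested. With cells of at least 1000 molecules, 2 genes were higher in HOM immature astrocytes 1. With cells that had a Y-linked transcript (31 or 32 WT cells, and 5 to 9 genes compared), 1 gene was lower in HET and 2 were higher and 1 lower in HOM immature astrocytes 1, while in immature astrocytes 2 there were 2 higher and 0 lower in HET and 2 higher in HOM. With a minimum sum of 200, 7 genes could be compared in immature astrocytes 1, without Pla2g7, and 0 were higher in HET and 0 in HOM. Without cells whose barcode occurred in another library, 1 gene was higher in HET immature astrocytes 1, as Gfap fell to a log2 ratio of 0.58. The share of cells with at least 3 of the genes rose with a minimum of 1000 molecules to 91.2% in WT, 90.5% in HET and 87.1% in HOM immature astrocytes 1 and to 84.9%, 86.2% and 86.5% in immature astrocytes 2. With a type probability of at least 0.9 it was 77.5%, 76.2% and 73.4%, and 60.9%, 65.4% and 63.4%. The small number of cells limits Gfap, Aqp4 and Pla2g7 in immature astrocytes 1 most.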
